A study of Homo sapiens with 3 samples.

Results

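Serine, folate one-carbon, proline and asparagine synthesis were followed through 10 genes, namely PHGDH, PSAT1, PSPH, SHMT1, SHMT2, MTHFD2, ALDH1L2, ASNS, PYCR1 and ALDH18A1. The genes were picked by name as enzymes of amino acid synthesis and folate metabolism, and each had 1 row among the 34520 rows of the deposited table. RNA came from SK-N-BE(2), an established line of human neuroblastoma cells with amplified MYCN, kept as untreated control or given arsenic trioxide (ATO) at 2 µM or 4 µM for 12 h. Each of the 3 groups had 1 library, so values below carry neither replicate error nor a p-value. Control and ATO cells shared the cell line and a medium with added pyruvate and non-essential amino acids, and the labels do not say whether the control received a vehicle. Values are FPKM, fragments scaled to transcript length and to the size of the library, which allows levels of different genes to be set side by side. Differences are log2 ratios of FPKM + 1, which understate the difference of genes with low values, and a size rule was set at an absolute value of 1 or more. All 10 genes averaged 1 FPKM or more across the 3 libraries, as did 12433 rows in all, which are called considered rows.

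Cells make serine from the glycolytic intermediate 3-phosphoglycerate, and serine hydroxymethyltransferases split serine into glycine and a one-carbon unit carried by folate. That unit is processed in mitochondria and in the cytosol by parallel sets of enzymes and ends in purines, thymidylate, formate or methyl groups. Asparagine is made from aspartate with nitrogen from glutamine, and proline is made from glutamate in mitochondria. Many of these genes are textbook targets of ATF4, the transcription factor of the amino acid and integrated stress responses, and several are also known targets of MYC proteins in tumour cells.

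The treatment was visible in the genes that frame this pathway. Depth, inferred from how low values are spaced, was alike, with ratios to control of 1.03 (2 µM) and 0.991 (4 µM). HMOX1, the heme oxygenase gene induced by arsenic, had 9.17 FPKM in the control, 808 FPKM at 2 µM and 1770 FPKM at 4 µM. MYCN had 832, 412 and 197 FPKM in the same order. ATF4 mRNA, whose protein is controlled mainly at translation, had 110, 138 and 199 FPKM, a log2 fold of 0.85 at 4 µM, below the size rule, which it passed after scaling by median-of-ratios (1.02) or by the upper quartile (1.04). The 8 listed adrenergic neuroblastoma markers were all expressed, and their summed level was 371, 248 and 120 FPKM in control, 2 µM and 4 µM cells. The summed level of 6 fibroblast genes, among them LUM and COL1A1, was lower with dose too, at 124, 73.6 and 36.9 FPKM. COL1A2, also among the 6, was not lower, at 0.391, 0.597 and 0.456 FPKM. By contrast, 4 leukocyte genes summed to 0.858, 4.63 and 5.19 FPKM, most of it CD68 in the ATO libraries, with PTPRC at 0.0975 FPKM or less. Endothelial and epithelial markers summed to 2.35 FPKM or less in each library. The part of these shifts in the values below was not tested, and fewer cells of a type and less RNA per cell cannot be told apart in such bulk samples.

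At 4 µM, 7 of the 10 genes were higher than in the control by the size rule and 1 was lower. The higher genes were the complete serine synthesis set PHGDH, PSAT1 and PSPH, the mitochondrial folate enzymes SHMT2, MTHFD2 and ALDH1L2, and the asparagine synthetase gene ASNS. ALDH18A1, which opens proline synthesis, was the lower gene, and PYCR1 and SHMT1 did not pass. Over all considered rows, 4.19% were higher and 5.27% were lower at this dose. The median log2 fold of the 10 genes was 1.23, against -0.13 over the considered rows. At 2 µM, ASNS was the single gene past the rule, where 1.16% of considered rows were higher and 0.901% were lower, and the median of the 10 genes was 0.53 against 0.01. The summed level of the 10 genes was 233 FPKM in the control, 334 FPKM at 2 µM and 466 FPKM at 4 µM.

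Of the 10 genes, 7 had a higher level at each step from control to 2 µM to 4 µM and 2 had a lower level at each step, a pattern that 22.8% and 34.2% of considered rows showed. The 7 genes with the stepwise increase are those higher at 4 µM, SHMT1 and ALDH18A1 are the stepwise lower pair, and PYCR1 had no order. The comparisons of each dose with control share the control library. For the 7 higher genes the log2 fold at 2 µM was between 30.9% (ALDH1L2) and 61.6% (ASNS) of that at 4 µM, with a median of 53.8%. These 7 were picked by their fold at 4 µM. An error that raised that fold would lower the share and widen the difference between the doses. Set directly against 2 µM, the 4 µM library had log2 folds from 0.60 to 0.87 for these 7 genes. None of the 10 passed the size rule in that comparison, in which 1.14% of considered rows were higher and 1.34% were lower. With upper-quartile scaling, however, ASNS and ALDH1L2 passed it (1.01 and 1.02), where 1.82% of considered rows were higher.

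**Figure D1:**
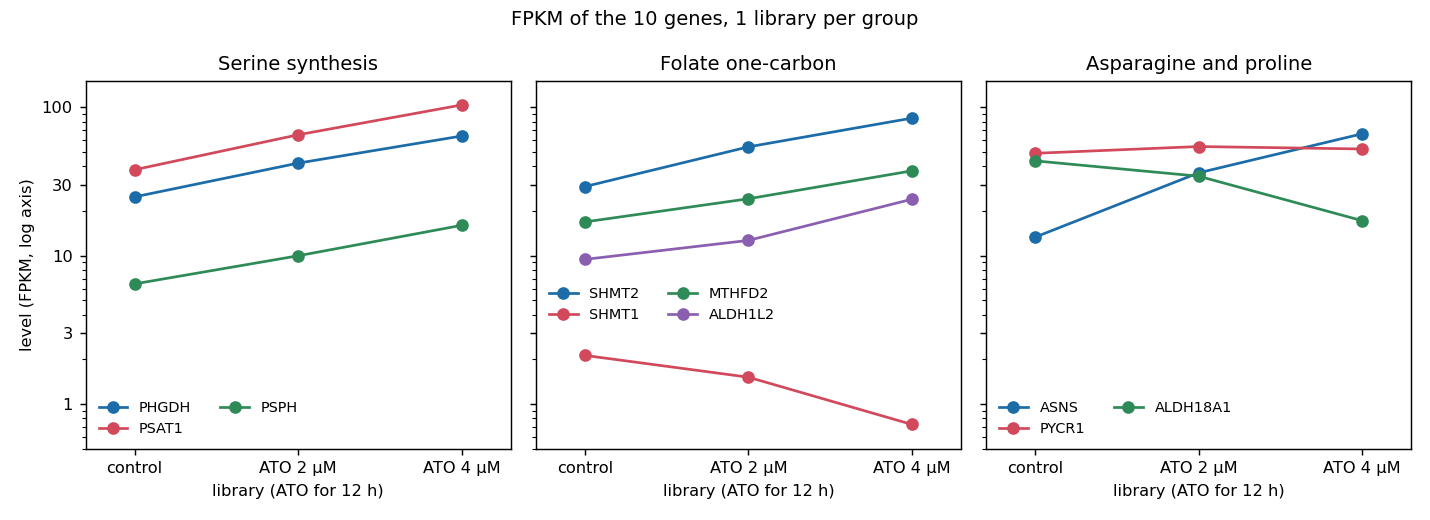
FPKM of each gene (log axis) in the control, ATO 2 µM and ATO 4 µM libraries, with 1 point per library and lines joining the points of 1 gene. The lines of 7 genes climb at both steps, those of SHMT1 and ALDH18A1 descend, and PYCR1 stays between 48.9 and 54.3 FPKM.

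Promoter sequence is shown as description, and its part in the direction of change was not tested. Most of the genes moved together, while ALDH18A1 and, short of the size rule, SHMT1 moved the other way. RefSeq promoters on GRCh38.p14, from 250 bases before to 50 bases after the transcript start, matched 6 of the 10 genes with 7 starts. PSPH, SHMT2, ALDH1L2 and PYCR1 were not among them. Both strands were searched for TGATGNAA, the core of the C/EBP-ATF response element through which ATF4 acts, and for CACGTG, the E-box that MYC and MAX proteins bind. The motifs do not overlap each other. Of all 35116 promoters in that table, 3.62% hold TGATGNAA and 7.26% hold CACGTG. Among the 10 genes the first was found in ASNS, in the window of 1 of its 2 starts and not in that of the other, and the second in ALDH18A1, 1 match each, and the promoters of PHGDH, PSAT1, MTHFD2 and SHMT1 hold neither in this window. The 250 bases before the start of ASNS (chr7:97872409-97872658, minus strand), of ALDH18A1 (chr10:95656712-95656961, minus strand) and, as a gene with neither motif, of PSAT1 (chr9:78296875-78297124, plus strand) follow, with motif matches in capitals.
ASNS: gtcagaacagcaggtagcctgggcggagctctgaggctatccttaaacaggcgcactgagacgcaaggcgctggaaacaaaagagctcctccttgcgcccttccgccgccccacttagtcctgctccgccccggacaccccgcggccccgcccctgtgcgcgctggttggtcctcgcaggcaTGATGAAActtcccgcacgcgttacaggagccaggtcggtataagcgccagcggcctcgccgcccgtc
ALDH18A1: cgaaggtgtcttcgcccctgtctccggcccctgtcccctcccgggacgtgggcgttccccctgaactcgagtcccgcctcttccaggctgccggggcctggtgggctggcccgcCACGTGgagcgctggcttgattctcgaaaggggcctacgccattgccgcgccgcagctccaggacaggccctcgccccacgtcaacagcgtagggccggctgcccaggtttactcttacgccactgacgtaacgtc
PSAT1: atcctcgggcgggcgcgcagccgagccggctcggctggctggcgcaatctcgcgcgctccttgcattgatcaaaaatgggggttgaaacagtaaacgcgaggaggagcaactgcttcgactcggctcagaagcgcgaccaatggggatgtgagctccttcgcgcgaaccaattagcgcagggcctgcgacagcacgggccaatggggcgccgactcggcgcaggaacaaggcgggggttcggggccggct
In ASNS the match lies at bases -68 to -61, counted from -1 at the last base before the start, and in ALDH18A1 at -136 to -131. A match is a stretch of letters and was not tested for binding.

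Serine synthesis enzymes were higher as a complete set. PHGDH, which oxidises 3-phosphoglycerate in the first step, had 24.9 FPKM in the control, 42.0 FPKM at 2 µM and 63.9 FPKM at 4 µM. Its log2 fold was 0.73 at 2 µM and 1.33 at 4 µM, and 97.8% of considered rows had a lower fold at 4 µM. PSAT1, which transfers the amino group from glutamate, had 37.9, 65.2 and 104 FPKM in control, 2 µM and 4 µM cells, log2 folds of 0.77 and 1.43. By FPKM it ranked 3 among the 10 genes in the control and 1 at both doses. PSPH, which removes the phosphate to release serine, had the lowest level of the set at 6.45, 9.98 and 16.0 FPKM, with log2 folds of 0.56 and 1.19. Level for level the enzymes kept their order in every library, PSAT1 above PHGDH above PSPH, and the 4 µM level was 2.48 to 2.73 times the control. Together the 3 enzymes summed to 69.2 FPKM in the control, 117 FPKM at 2 µM and 183 FPKM at 4 µM. With a pseudocount of 5 FPKM, PSPH was at 0.88 and no longer passed the size rule.

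Other genes that make, break down or carry serine and glycine were set beside these. Of 15 listed, 8 were considered, and 1 was higher and 1 was lower at 4 µM, with a median log2 fold of -0.09 that was 0.066 with median-of-ratios scaling and 0.086 with upper-quartile scaling. SLC6A9, which encodes a glycine transporter, had 1.57, 1.80 and 5.28 FPKM in control, 2 µM and 4 µM cells, a log2 fold of 1.29 at 4 µM. GCSH, the gene of the lipoyl-carrying protein of the mitochondrial glycine cleavage system, had 7.36, 5.80 and 2.73 FPKM and a log2 fold of -1.16. With a pseudocount of 5 FPKM neither passed the rule, SLC6A9 at 0.65 and GCSH at -0.68, and both average below 10 FPKM. GLDC and AMT, which encode further parts of that system, lay below 1 FPKM in each library. SARDH, for sarcosine breakdown, and SDSL, a serine dehydratase relative, had log2 folds of -0.30 and -0.28.

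**Figure D2:**
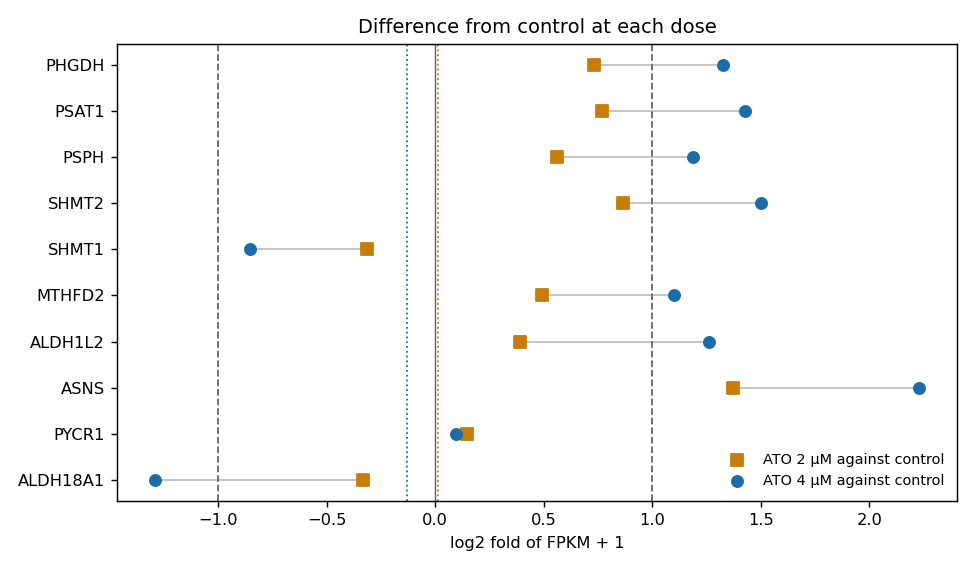
Log2 fold of FPKM + 1 against control for each of the 10 genes at 2 µM (squares) and 4 µM (circles), with dashed lines at the size rule of -1 and 1 and dotted lines at the median of all considered rows for each dose (0.01 at 2 µM and -0.13 at 4 µM). At 4 µM, 7 circles lie right of 1, from 1.10 (MTHFD2) to 2.23 (ASNS), and the circle of ALDH18A1 lies at -1.29.

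In folate metabolism SHMT2, MTHFD2 and ALDH1L2 were higher at 4 µM by the size rule, and SHMT1 was lower in value without passing it. SHMT2, the mitochondrial enzyme that takes the one-carbon unit from serine, had 29.2 FPKM in the control, 54.0 FPKM at 2 µM and 84.4 FPKM at 4 µM. Its log2 folds were 0.87 and 1.50. MTHFD2, the mitochondrial dehydrogenase and cyclohydrolase that acts next, had 16.9, 24.2 and 37.3 FPKM, log2 folds of 0.49 and 1.10. A pseudocount of 5 FPKM took MTHFD2 to 0.95, below the size rule. ALDH1L2, which oxidises mitochondrial 10-formyl-tetrahydrofolate and yields NADPH, had 9.43, 12.7 and 24.0 FPKM, log2 folds of 0.39 and 1.26. Of the 7 higher genes it had the smallest fold at 2 µM and, against 2 µM, the largest at 4 µM (0.87). SHMT1, the cytosolic counterpart of SHMT2, had 2.13, 1.52 and 0.729 FPKM, the lowest level of the 10 genes in each library. Its log2 fold was -0.86 at 4 µM and missed the size rule, while its FPKM at 4 µM was 0.343 times the control. With a pseudocount of 0.1 FPKM or after rescaling to TPM, where the 1 added before the log weighs less, it passed, at -1.43 and -1.23.

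The levels of paired enzymes parted with dose. SHMT2 stood at 13.7 times SHMT1 in the control, 35.6 times at 2 µM and 116 times at 4 µM, both in FPKM. MTHFD1, the cytosolic enzyme with dehydrogenase, cyclohydrolase and formate-linked synthetase activities, had 15.1, 10.7 and 5.34 FPKM in control, 2 µM and 4 µM cells (log2 fold -1.34 at 4 µM). MTHFD2 was therefore 1.12, 2.26 and 6.98 times MTHFD1. MTHFD1L, which releases formate in mitochondria, had 10.4, 13.2 and 15.2 FPKM (log2 fold 0.50), or 0.691, 1.23 and 2.84 times MTHFD1. MTHFD2L, a relative of MTHFD2, stayed at 0.737, 0.623 and 0.725 FPKM. ALDH1L1, the cytosolic counterpart of ALDH1L2, was barely detected at 0.113, 0.0786 and 0.0485 FPKM. A ratio within a library is untouched by scaling between libraries, but it shows unequal change and does not show which gene of a pair changed.

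**Figure D3:**
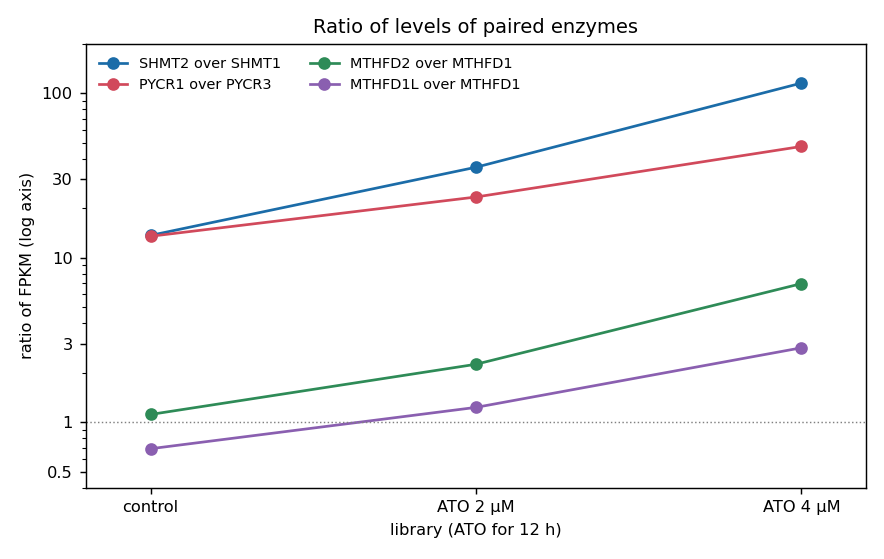
Ratio of FPKM (log axis) of paired enzymes in the control, ATO 2 µM and ATO 4 µM libraries, with 1 point per library. SHMT2 over SHMT1 climbs from 13.7 through 35.6 to 116 and MTHFD2 over MTHFD1 from 1.12 through 2.26 to 6.98.

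Of 19 other folate genes listed, 14 were considered, and 0 were higher and 2 were lower at 4 µM. Their median log2 fold was -0.39, against -0.13 over all considered rows, and 13 of the 14 were below 0. With a median of -0.13, most considered rows were below 0 too, and their exact share is not given here. Upper-quartile scaling moved the median of all considered rows to 0.028, and median-of-ratios moved it to 0.010. Whether 13 genes stay below 0 after such scaling was not tested. MTHFD1 and SLC19A1, the reduced folate carrier gene (2.94, 2.10 and 0.853 FPKM in control, 2 µM and 4 µM cells, log2 fold -1.09), passed the rule. With a pseudocount of 5 FPKM neither did, MTHFD1 at -0.96 and SLC19A1 at -0.44. SLC19A1 was at -1.67 with a pseudocount of 0.1 FPKM, at -0.99 with median-of-ratios and at -0.98 with upper-quartile scaling. TYMS, which makes thymidylate, had 24.6, 22.4 and 12.9 FPKM (-0.88). MTHFD1L was the member above 0.

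ASNS had the largest log2 fold of the 10 genes at both doses. The gene encodes the enzyme that makes asparagine from aspartate and glutamine. It had 13.3 FPKM in the control, 36.1 FPKM at 2 µM and 66.2 FPKM at 4 µM. The log2 folds were 1.37 and 2.23. Its level at 4 µM was 4.97 times the control, and 99.5% of considered rows had a lower log2 fold at 4 µM. Ranked by level among the 10 genes it was number 7 in control cells, number 5 at 2 µM and number 3 at 4 µM. A pseudogene row, ASNSP1, followed it at 0.532, 1.19 and 3.18 FPKM, and reads of such a copy may be divided between rows. The same doubt holds for PSPH, whose pseudogene PSPHP1 had 3.84, 3.40 and 2.77 FPKM, opposite in direction to PSPH.

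Among 15 other genes of aspartate, glutamate, alanine and asparagine metabolism, 10 were considered and 1 was higher and 1 was lower at 4 µM. The median log2 fold was -0.19. GOT1, the cytosolic aspartate aminotransferase gene, had 14.3, 19.4 and 48.9 FPKM in control, 2 µM and 4 µM cells (log2 fold 1.71), and the gene of its mitochondrial counterpart, GOT2, had 28.3, 27.5 and 18.2 FPKM (-0.61). CAD, which uses glutamine and aspartate to start pyrimidine synthesis, had -1.78, and GPT2, the mitochondrial alanine aminotransferase gene, 0.87. GPT2 passed the rule with median-of-ratios (1.03) and upper-quartile scaling (1.05), which makes 2 higher.

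The proline enzymes did not go with the serine and asparagine genes. ALDH18A1, whose product turns glutamate into the precursor of proline and ornithine, had 43.5 FPKM in the control, 34.3 FPKM at 2 µM and 17.2 FPKM at 4 µM. Its log2 folds were -0.33 and -1.29, and 2.36% of considered rows had a lower fold at 4 µM. PYCR1, which completes proline synthesis in mitochondria, had 48.9, 54.3 and 52.3 FPKM, log2 folds of 0.15 and 0.10. Its difference between 4 µM and 2 µM, -0.05, was 0.079 with median-of-ratios scaling, 0.10 with upper-quartile scaling and 0.035 as TPM. In the control PYCR1 and ALDH18A1 had the highest levels of the 10 genes, and at 4 µM they ranked 5 and 8. PYCR1 stood at 1.12, 1.58 and 3.04 times ALDH18A1 in control, 2 µM and 4 µM cells.

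PYCR3, the cytosolic reductase, had 3.61, 2.31 and 1.10 FPKM in control, 2 µM and 4 µM cells and a log2 fold of -1.14, which passed the size rule but was -0.50 with a pseudocount of 5 FPKM and -1.63 with one of 0.1 FPKM. PYCR1 stood at 13.5, 23.5 and 47.6 times PYCR3. Of 13 other genes listed for proline, ornithine and arginine, 9 were considered, 1 higher and 1 lower, with a median of -0.15. That median was 0.012 with upper-quartile scaling and 0.057 among genes averaging 10 FPKM or more. P4HA2, a subunit of the collagen prolyl hydroxylase, was the higher one, at 4.14, 7.16 and 13.3 FPKM (1.48). ASS1, for argininosuccinate synthesis, had 0.92 and the arginase gene ARG2 0.73. ASS1 passed the rule with median-of-ratios (1.09) and upper-quartile scaling (1.11) and as TPM (1.00), which makes 2 higher.

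Regulators of the amino acid response were set beside these enzymes. Of 19 listed and considered, with MYCN, MYC, MAX and TFE3 among them, 10 were higher and 1, MYCN, was lower at 4 µM (median log2 fold 1.03). At 2 µM, 3 were higher and 1 lower (median 0.46). With a pseudocount of 5 FPKM, 6 were higher at 4 µM with a median of 0.65, and 0 were higher at 2 µM with a median of 0.19. Among regulators averaging 10 FPKM or more, a smaller set than the 19, 6 were higher at 4 µM with a median of 0.94. MYCN at 2 µM was at -0.98 with either scaling and missed the rule there. An overlapping set of stress genes was already known to be higher in these libraries, so this is no independent support. TRIB3, a pseudokinase gene, had 3.61, 10.5 and 39.6 FPKM in control, 2 µM and 4 µM cells (log2 fold 3.14 at 4 µM). PPP1R15A, the phosphatase subunit gene that reverses eIF2 phosphorylation, had 11.5, 25.6 and 80.3 FPKM (2.70). NUPR1 had 0.573, 2.60 and 6.50 FPKM (2.25, but 3.30 with a pseudocount of 0.1 FPKM and 1.05 with one of 5 FPKM), and DDIT3, which encodes the factor CHOP, had 6.22, 11.7 and 29.7 FPKM (2.09). The 4 eIF2 kinase genes, also in the list, did not pass the rule, with log2 folds of -0.30 for EIF2AK2, -0.26 for EIF2AK4, -0.15 for EIF2AK1 and 0.25 for EIF2AK3. MYC, opposite in direction to MYCN, had 1.28, 2.15 and 4.84 FPKM in control, 2 µM and 4 µM cells (log2 fold 1.36 at 4 µM). TFE3 was at 1.03 and MAX at 0.17.

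The 2 promoter motifs were also searched in 56 considered genes of these lists that have a RefSeq promoter. List genes on chr8 were left out of this search, while the shares over all promoters include that chromosome. TGATGNAA was found in 5 (8.93% of these genes, beside 3.62% of all promoters), namely GOT1 (log2 fold 1.71 at 4 µM), ATF3 (1.25), CEBPG (1.18), PPP1R15B (0.58) and MTHFD1L (0.50). CACGTG was found in 10 (17.9%, beside 7.26% of all promoters), with log2 folds from -1.34 (MTHFD1) to 0.92 (ASS1), and SLC19A1, MTHFD1L and ATF4 were among them. MTHFD1L holds both. The lists were chosen with results of these data known, the counts are small, and a gene can have several promoters, so nothing is read from these shares.

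**Figure D4:**
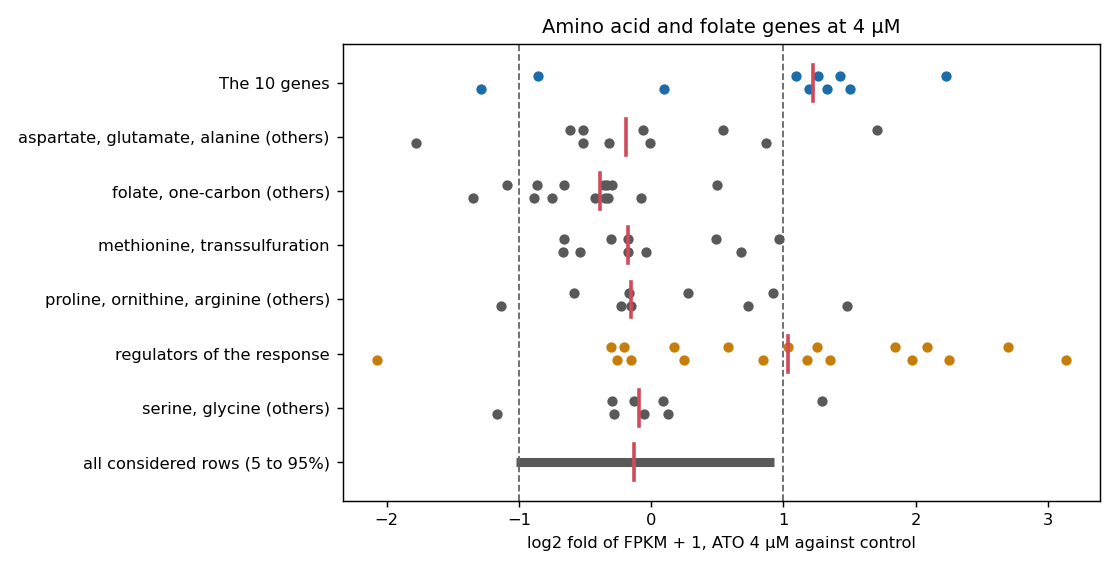
Log2 fold of FPKM + 1 at 4 µM against control for the 10 genes, for the considered genes of 6 related lists and, as a bar, for the 5th to 95th percentile of all considered rows (-1.02 to 0.93), with red marks at medians and dashed lines at -1 and 1. The median of the 10 genes is 1.23 and that of the regulators 1.03, and those of the other 5 lists lie between -0.39 and -0.09.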

How the data were processed

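Total RNA (1.3 µg per library) went into paired-end TruSeq libraries, per the labels' protocols. The authors deposited FPKM for each row, per the file headers. The names of the aligner and counting tool were not given in the sources used here. Mouse builds (GRCm38, mm10) appear in the submitters' processing notes although row names are human, so no coordinates are taken from the table. The use of strand in counting is not given, so overlapping and antisense genes are uncertain. Counts were not in the table. The spacing of low FPKM values times transcript length (GENCODE, genes with 1 transcript) gave relative depth, but 17.2% to 18.5% of low values were whole multiples within 0.01, so reads were not recovered and counting errors are unknown.

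Rows averaging 1 FPKM or more were considered, and log2 ratios of FPKM + 1 were computed (Python 3.11.15, pandas 2.3.3, numpy 2.4.6). Calculations were tested on simulated data. Folds were planted there only in rows with higher levels, so genes with low values, such as SHMT1, were not covered. With 1 library per group no test was run. Alternatives were pseudocounts of 0.1 and 5 FPKM, no filter, a filter at 10 FPKM, median-of-ratios and upper-quartile scaling, and TPM. FPKM summed to 246878 to 262632 per library and TPM to 1000000, with 1 added to either before the log. The TPM setting therefore also acts as a smaller pseudocount. The 10 genes and the lists were chosen with earlier results of these data known. The genes named are the 10, MYCN, ATF4 and HMOX1, the compartment partners of the 10, up to 4 per list by absolute log2 fold at 4 µM, largest first, and the 5 genes with the most alike folds. GLDC, AMT, the eIF2 kinase genes, MYC, MAX, TFE3, the pseudogenes, cell type markers and genes holding a promoter motif were named in addition. A few others that qualify are not reported here.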

Additional observations from a re-analysis of the deposited data

How the results depend on the processing

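No paired analysis was possible because each group has 1 library and no replicate number. Leaving out a replicate was not possible for the same reason. Of 207 recomputed log2 folds of the 10 genes, 198 kept their sign and their side of the size rule. The 9 others are given in the report. Among the 198, the 30 without a filter and the 27 with the filter at 10 FPKM could not change. A filter leaves the fold of each kept gene as it is. The number of the 10 genes lower at 4 µM was 2 with a pseudocount of 0.1 FPKM and 2 as TPM, through SHMT1, against 1. The median of the 10 genes at 4 µM was 0.98 with a pseudocount of 5 FPKM, against 1.23. With that pseudocount 5 of the 10 genes were higher at 4 µM, against 7, as MTHFD2 and PSPH no longer passed. The number past the size rule was 6 there, against 8. The number past the size rule at 4 µM against 2 µM, all of them higher, was 2 with upper-quartile scaling, against 0. Of all considered rows, 1.82% were higher there, against 1.14%. For PYCR1 at 4 µM against 2 µM the values were 0.079 (median-of-ratios), 0.10 (upper-quartile) and 0.035 (TPM), against -0.053, and for SARDH 0.026, 0.039 and 0.0051 against -0.041.

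The median of all considered rows at 4 µM was -0.13 as deposited, 0.010 after median-of-ratios and 0.028 after upper-quartile scaling. At 2 µM it was -0.019 as TPM against 0.012, and at 4 µM against 2 µM it was 0.0075 with upper-quartile scaling against -0.12. With median-of-ratios, then upper-quartile scaling, the 10 genes' median at 4 µM was 1.38 and 1.40, and 7 were higher and 1 was lower with either. Of all considered rows past the rule at 4 µM, 44.3% were higher as deposited, 61.7% and 63.7% under the same scalings. At 4 µM against 2 µM the share was 46.1% as deposited, 67.3% and 71.5% with these scalings. List medians changed sign as follows. The other serine and glycine genes were at 0.066 and 0.086 at 4 µM, and at 0.0067 and 0.024 against 2 µM, again in that order. The proline list was at 0.057 at 4 µM and -0.047 against 2 µM with the filter at 10 FPKM, and at 0.012 at 4 µM with upper-quartile scaling. The methionine list was at 0.0028 at 4 µM with upper-quartile scaling. Without a filter the aspartate and glutamate list was at -0.016 at 2 µM. The cause of these differences was not tested. Single libraries limit every value.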

Other observations

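The methionine cycle, which receives one-carbon units, and transsulfuration, which takes serine towards cysteine, had 10 considered genes of 12 listed, and 0 were higher or lower by the size rule at 4 µM (median log2 fold -0.17). CTH, the gene of cystathionine gamma-lyase, came closest at 2.61 FPKM in the control, 3.41 FPKM at 2 µM and 6.07 FPKM at 4 µM (0.97). It passed the rule, as the 1 higher gene, with a pseudocount of 0.1 FPKM (1.19), with median-of-ratios (1.11) and upper-quartile scaling (1.12) and as TPM (1.20). AHCY, which clears S-adenosylhomocysteine, had 71.4, 62.4 and 44.6 FPKM (-0.67), while its relative AHCYL1 had 37.8, 47.4 and 61.1 FPKM (0.68). MRI1, an enzyme of methionine salvage, had -0.66.

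Among the 5 genes whose pair of log2 folds at 2 µM and 4 µM lay nearest the medians of the 10 genes, by Euclidean distance over those 2 folds from 3 libraries, were TTLL7 (0.54 and 1.23), DENND5A (0.53 and 1.25), LACTB (0.52 and 1.20) and AKR1B1 (0.55 and 1.21). With a pseudocount of 5 FPKM, TTLL7 was at 0.85 and LACTB at 0.71 at 4 µM.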
